A study of Mus musculus with 8 samples.

Results

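The thyroid hormone and retinoic acid receptor axis was examined through 8 genes in hearts with and without HDAC3, a histone deacetylase. The genes are the thyroid hormone receptors Thra and Thrb, the activating deiodinase Dio2, the thyroid hormone response gene Klf9, the retinoic acid receptors Rara, Rarb and Rarg, and the receptor corepressor Nrip1. They were chosen by gene symbol, each had a single transcript cluster (the array's gene-level probe set), and all 8 were among the 14950 genes tested, of 19933 with a cluster of their own. Hearts came from 4 wild type (WT) and 4 HDAC3-deficient (KO) male C57BL/6 mice, all aged 6 weeks and fed normal chow, and were read on Affymetrix Mouse Gene 1.0 ST arrays, 1 per sample, labelled as biological replicates. The study's design text calls the KO mice MCH3-KO. The labels give neither the promoter nor the cell type of the deletion, nor whether the WT mice carried an altered allele. Of the 8 genes, Thra fell in KO hearts and 6 did not pass the test. Rara rose, with overlap of the groups, and its call close to the threshold was lost in 9 of 18 alternatives.

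Thyroid hormone receptors and retinoic acid receptors are nuclear receptors that sit on DNA as pairs with a retinoid X receptor (RXR). Without hormone they hold a corepressor complex built on NCoR or SMRT, of which HDAC3 is the deacetylase, and hormone exchanges this complex for coactivators. In the heart the thyroid hormone T3 is known for setting rate, relaxation and the choice of contractile proteins, and retinoic acid for patterning the chambers in the embryo.

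Response elements for these receptors are often built from 6-letter motifs in direct repeat, and the spacing between the repeats favours one receptor over another. Promoter windows from RefSeq (build GRCm38.p6, 250 bases before to 50 after a start site) matched 7 of the 8 genes, all but Thra, with 13 windows in all. They were searched on both strands for the consensus motif AGGTCA. The variant motif AGTTCA was searched too, and likewise the variant GGTTCA and the variant GGGTCA. All 4 were counted as single motifs and as direct repeats spaced by 0 to 5 bases. Inverted repeats were not searched. At least 1 of the 4 motifs was found in 7 of the 13 windows and in 43.7% of all 32851 windows in the table. A direct repeat was found in 1 window, that of Rarb, with a spacing of 5 bases. It starts at -53 from the start site and reads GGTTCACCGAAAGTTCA. Repeats of these motifs with that spacing occurred in 0.0974% of all windows. The window of Rarb is shown because it holds this repeat, and those of Rara because Rara is the retinoic acid receptor gene that passed the test. Capitals mark matches to the 4 motifs on either strand. A match describes the letters, and binding was not examined here.
Rarb, chr14:16575427-16575726, minus strand: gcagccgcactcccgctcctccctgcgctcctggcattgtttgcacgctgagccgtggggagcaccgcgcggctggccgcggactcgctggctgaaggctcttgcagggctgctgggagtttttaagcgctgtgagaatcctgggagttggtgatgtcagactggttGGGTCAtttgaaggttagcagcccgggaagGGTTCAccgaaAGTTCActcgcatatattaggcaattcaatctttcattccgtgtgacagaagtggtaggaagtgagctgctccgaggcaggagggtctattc
Rara, chr11:98939461-98939760, plus strand: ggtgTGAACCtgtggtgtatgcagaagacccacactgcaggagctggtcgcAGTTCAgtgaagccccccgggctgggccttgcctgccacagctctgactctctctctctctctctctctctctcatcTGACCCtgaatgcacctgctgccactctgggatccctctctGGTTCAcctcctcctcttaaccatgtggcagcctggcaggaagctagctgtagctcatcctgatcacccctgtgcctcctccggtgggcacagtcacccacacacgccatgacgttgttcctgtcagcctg
Rara, chr11:98964622-98964921, plus strand: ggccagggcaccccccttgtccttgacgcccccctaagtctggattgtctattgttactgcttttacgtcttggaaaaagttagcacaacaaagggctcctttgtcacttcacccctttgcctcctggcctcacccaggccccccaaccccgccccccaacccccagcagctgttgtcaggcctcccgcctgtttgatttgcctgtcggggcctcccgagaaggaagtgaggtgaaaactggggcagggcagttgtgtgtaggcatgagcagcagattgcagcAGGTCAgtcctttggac
The other 2 windows of Rara, and those of Dio2 and Klf9, held none of the 4 motifs.

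The arrays had median intensities of 54.1 to 56.5. Hdac3 read 1051 to 1173 in WT and 362 to 387 in KO hearts, so the groups did not overlap. The position of its probes relative to the deleted part was not examined. The 8 cardiomyocyte markers had summed intensities of 62478 to 63567 in WT and 59465 to 60635 in KO hearts, without overlap. Of these 8 markers 2 passed, both lower in KO, or 25% against 24.6% of all genes. The sum of 10 macrophage markers was 3248 to 3729 in WT and 7426 to 9632 in KO, and all 10 rose. WT replicate 2 stood apart in some marker sums. Its endothelial sum was 6813, where WT replicates 1, 3 and 4 had 5423 to 5589.9, and its adipocyte sum was 426, where they had 343 to 362. It also held the largest deviation from the group mean for 4 of the 8 receptor axis genes (Thra, Klf9, Rara and Nrip1), so values without it are given for these. The 4 measured thyroid gland markers, the defining gene Tg among them, summed to 119.9 to 139 in WT and 118 to 137 in KO hearts, and none of the 3 tested passed. All differences below are KO minus WT on the log2 intensity scale, with n = 4 arrays per group, and a gene passed where its limma p, after Benjamini-Hochberg adjustment across the 14950 genes, was under 0.05.

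Thra encodes thyroid hormone receptor alpha, the main receptor of this kind in heart muscle. Its intensity was 852, 946, 862 and 876 in the 4 WT hearts and 713, 711, 699 and 732 in the 4 KO hearts. Every KO heart lay below every WT heart. The mean log2 intensity was 9.79 ± 0.07 in WT and 9.48 ± 0.03 in KO (SD, n = 4). The difference of -0.31 (SE 0.05, 95% interval -0.42 to -0.20, adjusted p = 0.00141 in limma) left KO hearts 80.8% of the WT level. Its size exceeded that of 85.8% of all genes tested. It was -0.27 without WT replicate 2, and it passed under all 18 alternatives run, at adjusted p-values from 0.000194 to 0.00695. A single cluster does not separate the receptor form that binds hormone from the splice form that does not. In RNA of a whole tissue, fewer cells that express a gene and less RNA per cell cannot be told apart. In the same hearts the macrophage markers rose and the cardiomyocyte marker sum was lower. The part of either in this difference was not tested.

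Thrb, the gene of the beta receptor, read 156, 154, 162 and 170.2 in WT and 149, 148, 151 and 154 in KO hearts. In 3 KO hearts it lay below all WT hearts, and KO replicate 4 overlapped WT replicate 2. The difference was -0.09 (SE 0.05, 95% interval -0.20 to 0.02, adjusted p = 0.218 in limma), so a fall of up to 13% and a rise of up to 1.27% are both inside the interval. To ask whether Thra and Thrb changed by different amounts, the log2 ratio of Thra to Thrb within each array was compared between the groups. The same was done for the 3 pairs of retinoic acid receptor genes. These comparisons, that of Thra and Thrb included, were chosen after the values were seen. The log2 ratio of Thra to Thrb differed by -0.22 (KO minus WT), with no overlap of the groups. The two-sided exact permutation p was 0.0286, the smallest that 4 against 4 arrays allow, and 0.0572 after Benjamini-Hochberg adjustment over the 4 pairs, which does not pass. Even the smallest p passes this adjustment only if most of the 4 pairs reach it, so nothing is concluded from the miss.

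**Figure D1:**
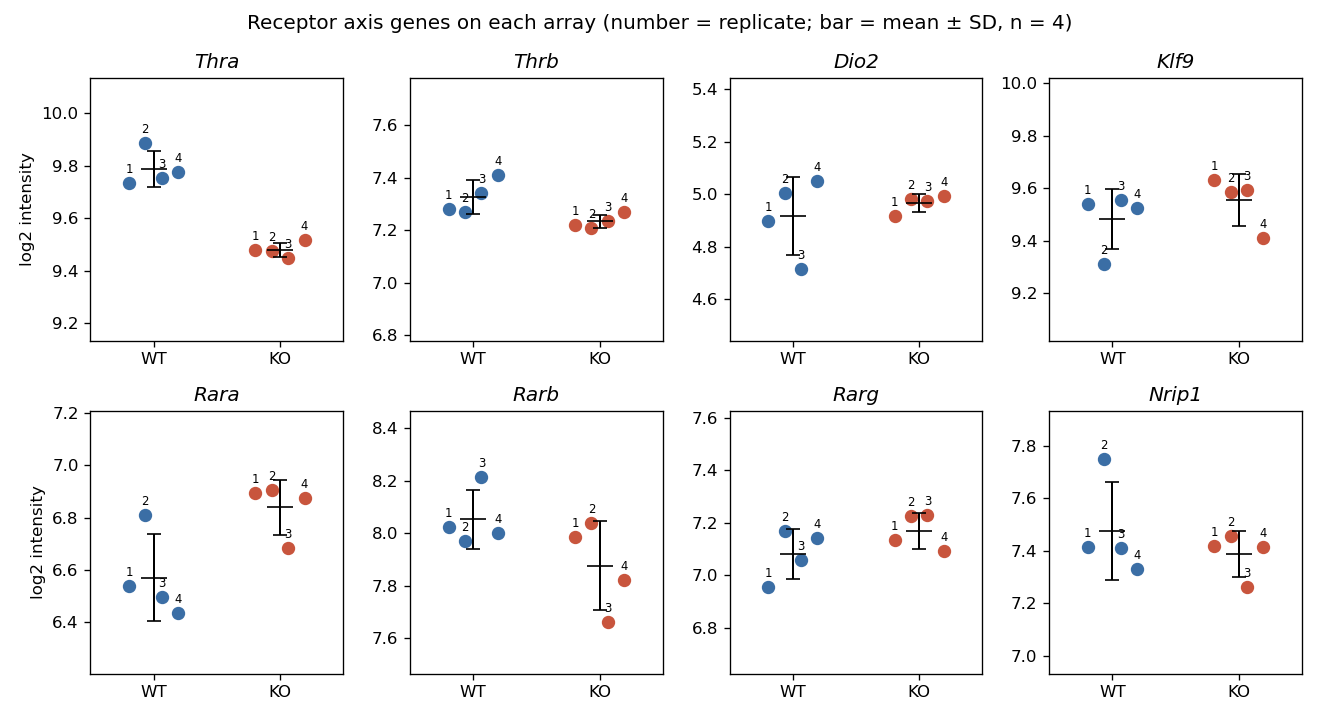
Log2 intensity of the 8 genes (vertical axis, each panel spanning the same range of log2 units around its own mean) in WT (blue) and KO (red) hearts. Each point is 1 array, the number is the replicate, and the bars are mean ± SD (n = 4). Only Thra separates the groups without overlap.

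Of the 8 genes 2 passed the test, 1 lower and 1 higher, where 24.6% of all genes tested passed (13.9% lower and 10.8% higher). The groups did not overlap for 1 of the 8 genes, against 28.6% of all genes. The median size of the difference, without sign, was 0.09 over the 8 genes and 0.11 over all genes. The median with sign was -0.02 for the 8 genes and -0.01 for all. The called share and both medians are close to those of the whole array, while groups without overlap were fewer among these few genes. For the 6 genes that did not pass, no 95% interval reached beyond 0.37 log2 units in either direction.

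**Figure D2:**
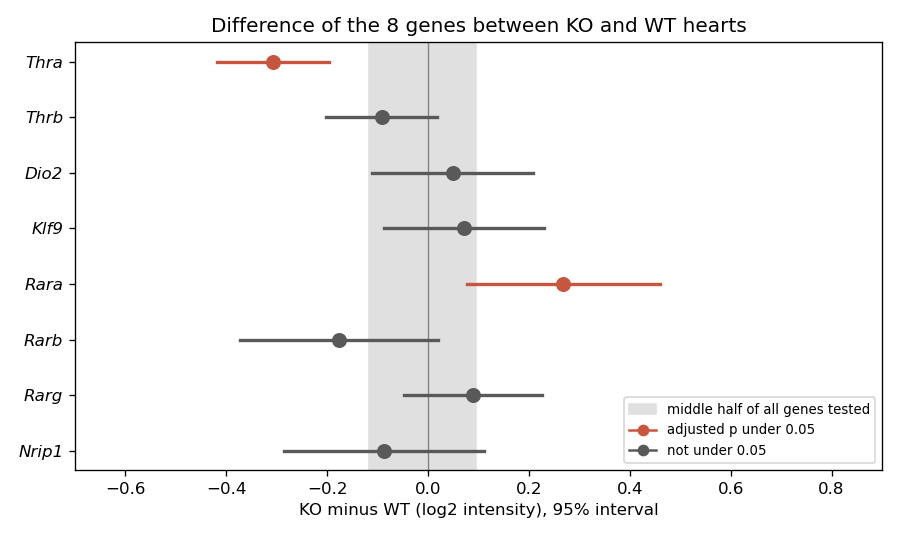
KO minus WT difference in log2 intensity (horizontal axis) for each of the 8 genes, with 95% intervals. The grey band is the interquartile range of the differences of all genes tested. Thra (-0.31) and Rara (0.27), in red, passed the test, and the intervals of the 6 others include 0.

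Dio2 encodes the deiodinase that turns the prohormone T4 into T3 inside cells. Its intensity was 29.8, 32.1, 26.3 and 33.1 in WT and 30.2, 31.6, 31.4 and 31.9 in KO hearts. All KO values lay within the WT range. The difference was 0.05 (SE 0.07, 95% interval -0.11 to 0.21, adjusted p = 0.69 in limma), and it was -0.02 without WT replicate 3. Dio2 was dim, with a mean level above that of 32.5% of genes against a filter at the 25th percentile, and a low signal limits what can be seen. The other deiodinase genes, Dio1 and Dio3, lay under that filter and were not tested.

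Among 9 listed genes of thyroid hormone transport and conversion, 5 were tested, of which 2 rose and 1 fell, or 60% called against 24.6% of all genes. The pathway lists were chosen with earlier results of these data known. Called shares here and in later paragraphs are therefore descriptions, not tests. Slc7a8 and Slc7a5 encode amino acid carriers that also move thyroid hormones. Slc7a8 read 72.2 to 90.2 in WT and 151 to 187 in KO hearts, a rise of 1.10 (SE 0.09, adjusted p = 1.31e-05). Slc7a5 read 97.5 to 139.6 in WT and 183 to 214 in KO, a rise of 0.73 (SE 0.10, adjusted p = 0.000544). Slc16a10, a carrier of aromatic amino acids and thyroid hormones, read 185 to 203 in WT and 149.9 to 167 in KO, a difference of -0.29 (SE 0.05, adjusted p = 0.00269). The groups did not overlap for these 3 carriers. Crym, a cytosolic T3-binding protein (0.15, adjusted p = 0.136), and Secisbp2, needed to make the selenium-containing deiodinases (0.02, adjusted p = 0.819), did not pass. Adjusted p-values in this paragraph are from limma.

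Genes that T3 is known to induce in heart or other tissues moved in both directions. Of 14 tested, 6 rose, 5 fell and 3 did not pass, which is 78.6% called where 24.6% of all genes were. The share over all genes includes dimmer genes. With the filter at the 50th percentile, which kept all 14, 12 of them passed, beside 3678 of 9967 genes. The median was 0.03. The pacemaker channel gene Hcn2 read 136 to 166 in WT and 42.9 to 53.6 in KO hearts, a difference of -1.72 (SE 0.09, adjusted p = 1.81e-06). Hcn4, its relative of the sinus node, fell (-0.86, adjusted p = 1.92e-05). The transient outward channel gene Kcnd3 fell (-0.72, adjusted p = 1.27e-05), while Kcnd2, which encodes another pore subunit of that current, rose (0.70, adjusted p = 2.71e-05). The contractile and calcium pump genes that are the textbook T3 targets of the heart did not pass. The gap for Myh6, which encodes the fast alpha myosin heavy chain, was -0.08 (adjusted p = 0.219) and that for Atp2a2, the calcium pump of the sarcoplasmic reticulum, -0.09 (adjusted p = 0.153). Neither gene's groups overlapped, and both passed downward under robust variances with an intensity trend, at adjusted p = 0.0249 and 0.00774. Both were among the brightest genes, with WT means of 8156 and 10003 where array maxima ranged from 13919 to 16629. Whether so high a signal limits what can be seen was not examined. All p-values here are limma's.

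The remaining T3-induced genes that passed were named after their values were seen. Ucp3, a mitochondrial carrier, rose from 278 to 406 in WT to 644 to 690.5 in KO hearts (0.97, adjusted p = 0.000158 in limma). Thrsp, a lipogenic T3 response gene, rose (0.42, adjusted p = 0.00977), and so did Hr, a corepressor that binds the thyroid hormone receptor (0.29, adjusted p = 0.0102). Atp1b1, a sodium pump subunit, rose (0.20, adjusted p = 0.0167), but not past the threshold without KO replicate 1 (adjusted p = 0.0517). Me1, malic enzyme, was at the threshold (0.15, adjusted p = 0.0482) and missed it in 12 of 18 alternatives, among them 7 of the 8 that left out an array (0.13 to 0.16, up to adjusted p = 0.132). The glucose transporter gene Slc2a4 fell (-0.20, adjusted p = 0.0196, and 0.0552 without WT replicate 3), as did the mitochondrial glycerol phosphate dehydrogenase gene Gpd2 (-0.24, adjusted p = 0.0113).

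Of 7 genes that T3 is known to repress in the heart, Thra itself on the list, 4 fell, 0 rose and 3 did not pass, with a median of -0.20. That is 57.1% called, where 24.6% of all genes were (13.9% lower). Kcne1, which encodes the beta subunit of a slow repolarising potassium channel, read 106 to 166 in WT and 36.2 to 46.9 in KO hearts. That is a difference of -1.73 (SE 0.13, adjusted p = 1.17e-05 in limma), with no overlap. The adenylyl cyclase gene Adcy5 fell (-0.74, adjusted p = 7.17e-06). Its relative Adcy6 also fell (-0.20, adjusted p = 0.0246), but missed the threshold in 6 of the 8 fits that left out an array, all except those without WT replicate 2 and KO replicate 2 (-0.17 to -0.20, up to adjusted p = 0.0691). The slow heavy myosin chain Myh7 (-0.16, adjusted p = 0.0948) and phospholamban, Pln (-0.08, adjusted p = 0.22), did not pass. The Pln values of the groups did not overlap, and it passed under robust variances with an intensity trend (adjusted p = 0.0198). Pln was also among the brightest genes (WT mean 9491.5), and whether that limits what can be seen was not examined.

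**Figure D3:**
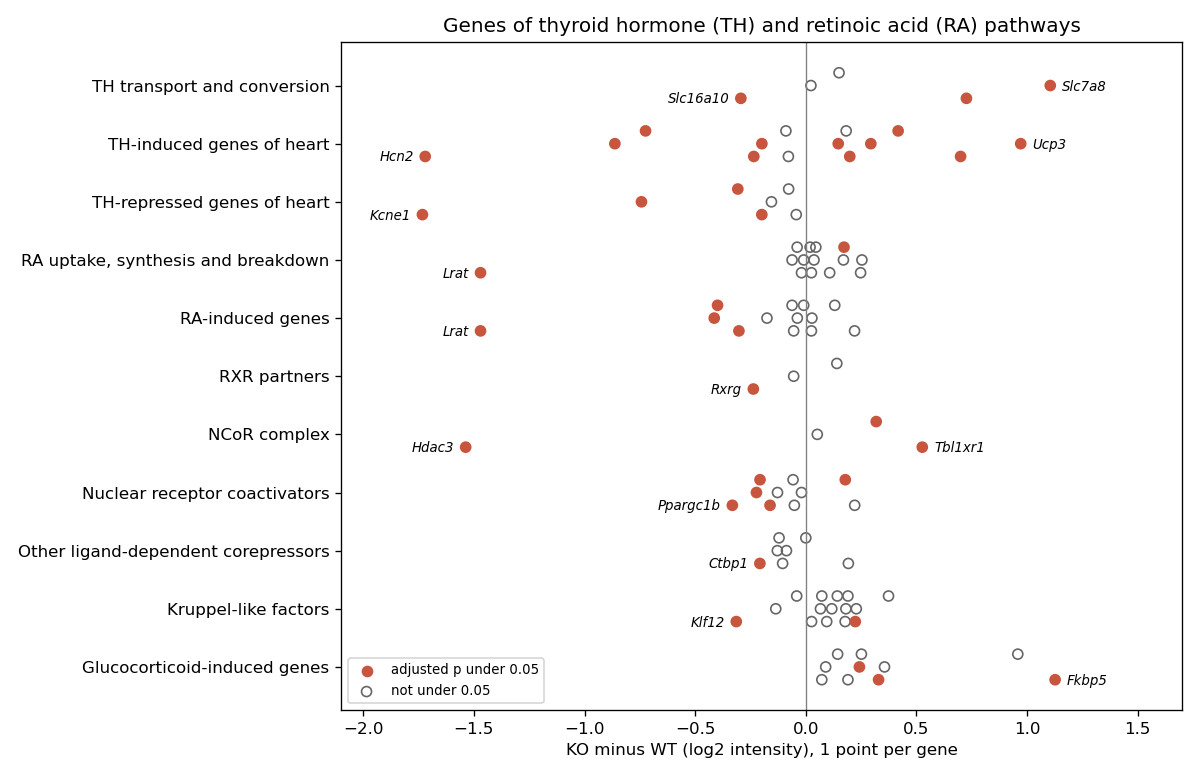
KO minus WT difference in log2 intensity (horizontal axis) for every tested gene of the 11 pathway lists (vertical axis), 1 point per gene, filled red where the adjusted p was under 0.05. Vertical offsets within a list only separate points. T3-induced genes lie on both sides of 0 (Hcn2 -1.72, Ucp3 0.97), and Lrat (-1.47) stands below all other retinoic acid genes shown.

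Rara encodes retinoic acid receptor alpha. Its intensity was 93.1, 112, 90.3 and 86.5 in WT and 119, 119.9, 103 and 117 in KO hearts. In 3 KO hearts it lay above every WT heart, while KO replicate 3 fell below WT replicate 2, so the groups overlapped. The mean log2 intensity was 6.57 ± 0.17 in WT and 6.84 ± 0.10 in KO (SD, n = 4). The difference was 0.27 (SE 0.09, 95% interval 0.08 to 0.46), a rise of 20.4% with an adjusted p of 0.0452 in limma. This call was close to the threshold. It held in 9 of 18 alternatives and was lost in 9, and the difference stayed between 0.22 and 0.35. Without WT replicate 2 it was 0.35 (adjusted p = 0.00496), and without KO replicate 3 it was 0.32 (adjusted p = 0.0289). It missed the threshold without WT replicate 1 (adjusted p = 0.0972), 3 (0.105) or 4 (0.112) and without KO replicate 1 (0.113), 2 (0.112) or 4 (0.0917). It was also lost with array medians centred (0.25, adjusted p = 0.0561) and with no filter on dim genes (adjusted p = 0.059). Macrophage markers rose in the same hearts, to sums between 9248 and 9632 in KO replicates 1 to 3 and 7426 in KO replicate 4. Their part in the Rara difference was not tested.

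**Figure D4:**
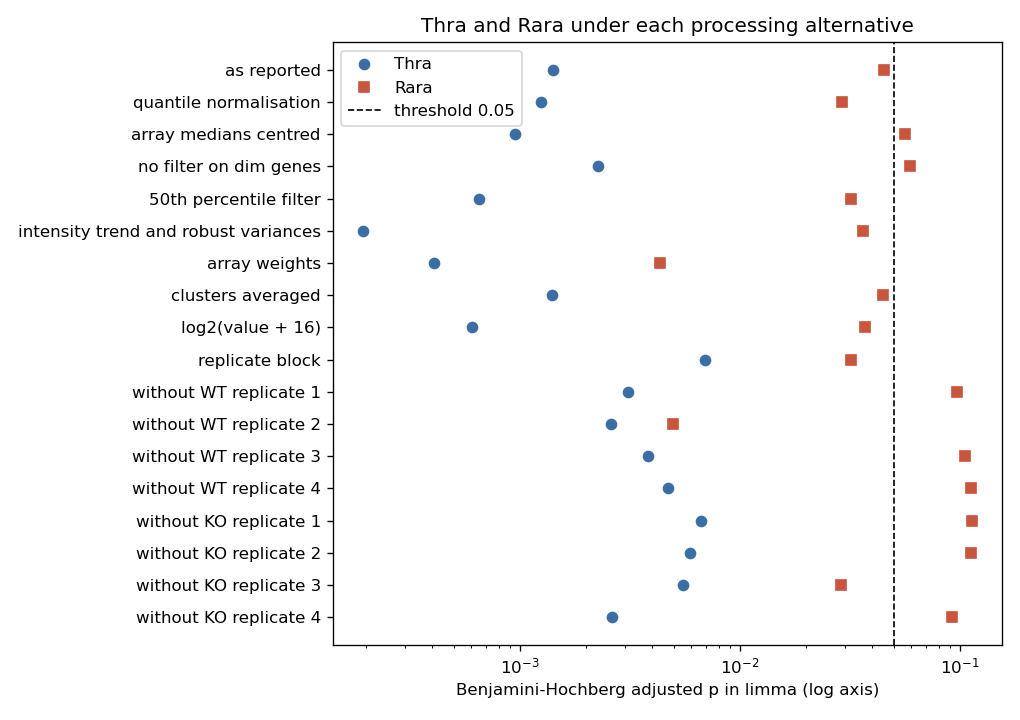
Adjusted p in limma (horizontal log axis) for Thra (blue circles) and Rara (red squares) as reported and under 17 alternatives, 1 per row, with the threshold of 0.05 dashed. The stricter threshold of 0.01, which leaves p unchanged, is not drawn. All Thra points lie left of the line (0.000194 to 0.00695), and Rara points lie on both sides (0.00434 to 0.113).

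Rarb, the retinoic acid receptor gene that retinoic acid itself induces in many cells, read 260.3, 251, 297 and 256 in WT and 253, 263, 203 and 227 in KO hearts. KO replicates 3 and 4 lay below all WT hearts and the other two KO hearts within their range. The difference was -0.18 (SE 0.09, 95% interval -0.37 to 0.02, adjusted p = 0.185 in limma), and it stayed negative in all 18 alternatives, from -0.23 to -0.10. Rarg, the third receptor gene, read 124, 144, 133 and 141 in WT and 140.3, 149.7, 150.0 and 136 in KO, with overlap. Its difference was 0.09 (SE 0.06, 95% interval -0.05 to 0.23, adjusted p = 0.342 in limma). The ratio of Rara to Rarb within arrays was higher in KO by 0.44 log2 units without overlap, with a two-sided exact permutation p of 0.0286 and 0.0572 after adjustment over the 4 pairs. Rara and Rarg differed by 0.18 in their change (exact p = 0.143, adjusted 0.143), and Rarb and Rarg by -0.27 (exact p = 0.0857, adjusted 0.114). After adjustment none of the receptor pairs passed, in a design whose smallest exact permutation p is 0.0286. The ratios of Thra to Thrb and of Rara to Rarb both stood at that smallest p. They could pass only if most of the 4 pairs had reached it. The adjusted test could therefore not decide whether these pairs changed by different amounts. The repeat in the Rarb window shown above thus stands beside a gene whose own difference did not pass.

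Of 14 tested genes of retinoic acid uptake, synthesis and breakdown, 1 fell, 1 rose and 12 did not pass, a called share of 14.3% against 24.6% of all genes. Lrat, which stores retinol as its ester, read 75.7 to 113 in WT and 30.5 to 37.5 in KO hearts. That is a difference of -1.47 (SE 0.12, adjusted p = 1.78e-05 in limma), with every KO heart below every WT heart. Aldh1a3, 1 of the 3 listed enzymes that make retinoic acid, was higher by 0.17 (adjusted p = 0.0363 in limma), a call lost in 12 of 17 alternatives, among them 6 of the 8 that left out an array (0.15 to 0.19, up to adjusted p = 0.0999; it passed without WT replicate 2 and KO replicate 3). Among genes that retinoic acid is known to induce, 4 of 13 tested fell, 0 rose and 9 did not pass (median -0.06). The called share of 30.8% is near the 24.6% of all genes, of which 13.9% were lower. Lrat is also on this list. The homeobox genes Meis2 and Meis1 fell. Meis2 read 440.4 to 453 in WT and 319 to 350.0 in KO (-0.41, SE 0.05, adjusted p = 0.000194), and Meis1 read 204 to 223 and 153 to 172 (-0.40, SE 0.05, adjusted p = 0.000392). Tgm2, a transglutaminase, fell (-0.30, adjusted p = 0.029), but missed the threshold without WT replicates 1, 3 or 4 or KO replicates 3 or 4 (-0.24 to -0.31, up to adjusted p = 0.0715). The breakdown enzyme gene Cyp26a1 was under the dim filter and was not tested.

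RXRs are the partners of both receptor families. Rxrg, the form found in striated muscle, read 943 to 1052 in WT and 823 to 870.1 in KO hearts, a difference of -0.24 (SE 0.05, adjusted p = 0.00652 in limma) without overlap. Rxrb was higher by 0.14 without overlap, but did not pass (adjusted p = 0.0544, and 0.0219 to 0.148 over the alternatives). Rxra differed by -0.06 (adjusted p = 0.493). Of the 3 partner genes, then, 1 fell and 0 rose (33.3% called against 24.6% of all genes). Without KO replicate 4, Rxrb passed as well (0.15, adjusted p = 0.0441).

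Nrip1 encodes RIP140, a corepressor that binds nuclear receptors in their hormone-bound form. It read 170.5, 215, 170.1 and 161 in WT and 171, 176, 153 and 171 in KO hearts. KO replicate 3 lay below all WT hearts and the rest within their range. The difference was -0.09 (SE 0.09, 95% interval -0.29 to 0.11, adjusted p = 0.543 in limma). Without WT replicate 2, the highest heart, it was 0.00 to 2 decimals, with an adjusted p of 0.979. Of the 7 ligand-dependent and related corepressor genes, Nrip1 on the list, 1 fell and 6 did not pass (14.3% called against 24.6% of all genes). That 1 was Ctbp1, a partner of RIP140 (-0.21, adjusted p = 0.0124). Without WT replicate 4 the count was 2. In the NCoR complex, apart from Hdac3, the bridging subunits Tbl1xr1 (0.53, adjusted p = 7.89e-05) and Tbl1x (0.32, adjusted p = 0.00455) rose, and Gps2 (0.05) did not pass. Among 10 coactivator genes 4 fell, 1 rose and 5 did not pass (50% called against 24.6% of all genes). The falls were Carm1 (-0.22, adjusted p = 0.0103), Ppargc1b (-0.33), Ncoa1 (-0.16) and Ncoa6 (-0.21), and the rise was Ncoa3 (0.18). Ncoa6 is named here to complete the count. The coactivator count of 5 fell to 1 without KO replicate 1, to 2 without WT replicate 1, WT replicate 2 or KO replicate 2, and to 3 without KO replicate 3.

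Klf9, a zinc finger factor that T3 and glucocorticoids are known to induce, read 745, 636, 752 and 736 in WT and 793, 769, 772 and 680.1 in KO hearts. In 3 KO hearts it lay above all WT hearts, and KO replicate 4 below all but WT replicate 2. The difference was 0.07 (SE 0.07, 95% interval -0.09 to 0.23, adjusted p = 0.529 in limma), and 0.02 without WT replicate 2. Its closest relative, Klf13, differed by 0.07 (adjusted p = 0.493). Across 15 tested Kruppel-like factor genes 1 rose (Klf6, 0.22, adjusted p = 0.00661), 1 fell (Klf12, -0.31, adjusted p = 0.00118) and 13 did not pass, with a median of 0.12. The called share was 13.3%, against 24.6% of all genes. Without WT replicate 4 the count was 5 in place of 2.

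Since Klf9 also answers to glucocorticoids, 10 genes known to be induced by them, Klf9 included, were read beside it. Of these 3 rose, 0 fell and 7 did not pass (median 0.25). The called share was 30.0%, all of it upward, against 24.6% of all genes (10.8% higher). No gene of the list had a negative difference. Fkbp5, a chaperone of the glucocorticoid receptor, read 139, 68.8, 260.1 and 207 in WT and 358, 343, 378 and 252 in KO hearts. KO replicate 4 lay below WT replicate 3, so the groups overlapped. The difference was 1.13 (SE 0.34, adjusted p = 0.0357 in limma), and it missed the threshold without WT replicate 1 (0.0805) or KO replicate 1 (0.0844), 2 (0.0784) or 3 (0.0854). Without WT replicate 2 it was 0.75 (adjusted p = 0.0274). Klf9 and Fkbp5 were both lowest among WT hearts in replicate 2 and lowest among KO hearts in replicate 4. The other genes of the list, all named here to complete it, mostly shared this. Tsc22d3, Zbtb16, Klf15 and Sult1a1 had the same lowest hearts. Per1 was also lowest among WT hearts in replicate 2, but lowest among KO hearts in replicate 3. Sgk1, Dusp1 and Errfi1 were lowest among KO hearts in replicate 4. Among WT hearts Sgk1 and Dusp1 were highest in replicate 2, and Errfi1 was lowest in replicate 4. The kinase gene Sgk1 (0.24, adjusted p = 0.0188, and 0.0539 without WT replicate 3) and the sulfotransferase gene Sult1a1 (0.33, adjusted p = 0.0131) rose as well.

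The receptor genes sit in related chromosomal pairs. Thra and Rara lie on chromosome 11 with 6 named protein-coding genes between them, and Rarb and Thrb are neighbours on chromosome 14, with 0 between them. In each place a gene of the Rev-erb repressors lies next to the thyroid hormone receptor gene (Nr1d1 by Thra, Nr1d2 by Thrb) and a topoisomerase 2 gene lies near the retinoic acid receptor gene (Top2a by Rara, Top2b by Rarb). Nr1d1 overlaps Thra, and it is known to be transcribed from the opposite strand. Nr1d1 differed by -0.10 (SE 0.09, adjusted p = 0.471 in limma), so a fall like that of Thra did not pass in its overlapping neighbour. Of the 5 tested genes between Thra and Rara none passed. Beyond Rara, and named after their values were seen, Top2a rose (0.58, adjusted p = 0.00251), and so did Igfbp4 (0.26, adjusted p = 0.0302), which missed the threshold without WT replicate 1 or 4 or KO replicate 1 or 2 (0.19 to 0.27, up to adjusted p = 0.086). Top2a marks dividing cells. Over all 8 genes, 34 neighbours within 3 places were tested, of which 5 rose and 2 fell, or 20.6%, against 24.6% of all genes. Besides Top2a and Igfbp4 these were Samsn1 (0.51) and Cxadr (-0.28) near Nrip1, Oxsm (0.20) near Rarb, Adck1 (-0.30) near Dio2 and Cemip2 (0.22) near Klf9. They too were named after their values were seen. The Cemip2 call was lost in 11 of 18 alternatives, among them 7 of the 8 that left out an array, all except the fit without WT replicate 2. Adck1 missed the threshold without KO replicate 2 (adjusted p = 0.0537 in limma) and with its clusters averaged (-0.14, adjusted p = 0.131).

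**Figure D5:**
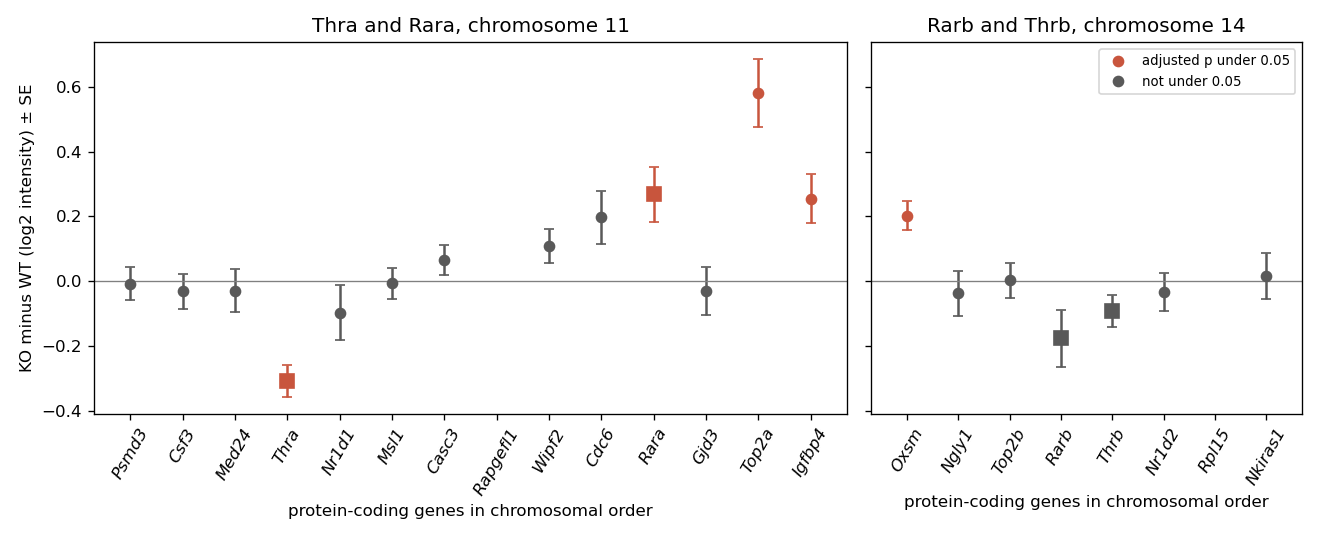
KO minus WT difference in log2 intensity ± SE (vertical axis) for protein-coding genes in chromosomal order (horizontal axis, order only, not distance) around Thra and Rara (left) and Rarb and Thrb (right). Squares are the receptor genes, red marks an adjusted p under 0.05, and names without a point were not tested. Thra (-0.31) stands alone below its neighbours, and no gene between it and Rara passed.

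For the 2 genes that passed, the most similar profiles were sought as the smallest root mean square difference between centred log2 values over the 8 arrays. For Thra these were Trnau1ap (0.02), Tm9sf4 (0.03) and Camk1 (0.03), where the median over all tested genes was 0.19. They differed between the groups by -0.29, -0.25 and -0.34. For Rara they were Eef1a1 (0.04), Atp9a (0.05) and Slc9a3r1 (0.05), against a median of 0.21, and they differed by 0.25, 0.26 and 0.33. The group difference enters this measure, and these profiles were picked for their likeness.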

How the data were processed

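Total RNA of 8 hearts was hybridised to 1 array each. The authors deposited 1 processed intensity per transcript cluster (27541) and array. The submitters' processing notes name RMA and Partek, with neither role nor version. The deposited intensities are linear. Any step from RMA's log scale to these values, the probe annotation and the genome build were not given in the sources used here. Scanner files were not used here, so detection calls and scan batches were not examined. The number of arrays limits precision.

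Gene names came from the annotation table of the platform. Exactly 1 symbol belonged to 21631 clusters, several to 1317 and none to 4593. Gene symbols were checked by Entrez ID against a RefSeq table of GRCm38.p6 (21544 found, 0 updated), which also gave gene order. The cluster with the highest mean was kept per gene, and genes under the 25th percentile (intensity 22.6) were left out, which removed 4983. Log2 values were compared with limma 3.58.1 (R 4.3.3, lmFit and eBayes), without covariates. On simulated data with 14950 genes, 88% of 1.5-fold and 100% of 2-fold changes were recovered with 8 false calls among 196. Only 100 genes were changed at each fold, where 3683 genes passed in the real data. Changes as small as those of the 8 axis genes were not simulated, so the power for them is not given. Single ratios used exact permutation tests (scipy 1.17.1).

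The 8 genes, the pathway lists and the tests were chosen with earlier results of these data known. Named genes were the 8, Hdac3, from each list up to 4 called genes of lowest p (else 2), the heart targets Myh6, Myh7, Atp2a2, Pln, Hcn2 and Kcne1, the RXR genes, Klf13, Nr1d1 and the 3 closest profiles of each of the 8 that passed. Other names were chosen after their values were seen, or complete a list, a count or a chromosomal place. Not all of them are marked as such. Replicate numbers are shared between groups, but deviations of same-numbered arrays correlated at -0.05 to 0.14, so they were not treated as pairs. The alternatives were other scalings, filters, variance models, array weights, averaged clusters, an offset of 16, a threshold of 0.01, a block for the replicate number, and each array left out in turn. A planned comparison of receptor proteins was not made. Lists of fibroblast, smooth muscle, skeletal muscle and neuron markers were read as well: 3 of 8 fibroblast markers rose, and of the 5, 4 and 2 tested markers of the others 0 passed. Of the 6 tested endothelial and 4 tested adipocyte markers 0 passed.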

Additional observations from a re-analysis of the deposited data

Results flagged for a closer look

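In 8 of 130 groups of 4 arrays examined, for the genes named here, 1 array lay far from the other 3 of its group by Dixon's test at the 95% level. Chance alone gives about 1 in 20 groups. Among the 8 axis genes, Klf9 read 636 in WT replicate 2 against 736 to 752 in the other WT hearts, and Rara read 103 in KO replicate 3 against 117 to 119.9 in the other KO hearts. WT replicate 2 was also apart for Trnau1ap (205 against 192 to 194). KO replicate 4 was low for Hdac3 (362 against 384 to 387) and for Atp1b1 (3394 against 3570.5 to 3592). Hcn2 read 136 in WT replicate 3 against 165 to 166, Klf12 read 228 in KO replicate 3 against 212 to 214, and Cemip2 read 95.3 in WT replicate 4 against 114 to 118.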

How the results depend on the processing

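Thra passed under all 18 alternatives, while Rara was lost in 9 of 18. Of the axis genes, 2 passed as reported and 1 with array medians centred, with no filter on dim genes or at a threshold of 0.01, and 1 to 2 when each array was left out. Signs turned for Dio2 without WT replicate 3 (-0.0188, in a range of -0.0188 to 0.093 over single arrays left out) and for Nrip1 without WT replicate 2 (0.0037, in a range of -0.1364 to 0.0037), and the cause was not tested. Called genes numbered 3683, 2210 at the 0.01 threshold and 2871 to 3619 without single arrays. At the 0.01 threshold T3-induced genes fell from 11 to 6, retinoic acid supply genes from 2 to 1, and coactivators (5), other corepressors (1) and glucocorticoid-induced genes (3) to 0. Retinoic acid supply genes numbered 1 with quantile normalisation, centred medians, no dim filter, trend and robust variances or an offset of 16, 0 with a 50th percentile filter, which leaves fewer genes, 4 with array weights and 1 to 3 without single arrays. RXR genes numbered 2 with quantile normalisation, the 50th percentile filter, array weights or the offset, and 1 to 2 without single arrays. Coactivators numbered 3 with no dim filter and 1 to 4 without single arrays. Other corepressors numbered 2 with quantile normalisation, the 50th percentile filter, trend and robust variances or array weights, and 1 to 2 without single arrays. Kruppel-like factors numbered 4 with the 50th percentile filter and 2 to 5 without single arrays. Glucocorticoid-induced genes numbered 5 with array weights and 2 to 4 without single arrays. The cause of these shifts was not tested beyond the fewer genes or arrays used. Over single arrays left out, the receptor contrasts ranged from -0.25 to -0.16 (Thra and Thrb), 0.36 to 0.55 (Rara and Rarb), 0.11 to 0.25 (Rara and Rarg) and -0.32 to -0.17 (Rarb and Rarg).

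With the replicate number as a block, 3382 genes passed, 2 axis genes among them (Rara at adjusted p = 0.0321 in limma), and coactivators numbered 3. Named genes that missed the threshold in that fit were Adcy6 (0.063), Tgm2 (0.0566), Me1 (0.0989), Ncoa1 (0.0673), Ncoa3 (0.0775) and Cemip2 (0.0579), each an adjusted p, and T3-repressed genes numbered 3 in place of 4. Deviations of same-numbered arrays correlated at -0.05, 0.14, 0.09 and 0.10, and WT replicate 1 correlated best with KO replicate 4, so the numbers were not taken as pairs. Other scalings moved the median difference of all genes to at most -0.03 from -0.01. Over 57 other named genes and their alternatives, 901 of 1021 values kept their direction and side of the threshold, 112 lost the call, 8 gained it and 0 changed sign. Dim genes such as Dio2 had no value under the 50th percentile filter. Background signal was not measured in the deposited values, so detection cannot be stated.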
